A study of Homo sapiens with 30 samples.

Results

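The cytosolic ribosomal protein genes code for the protein part of the ribosome. They were taken from the deposited expression table by name: every row named RPL, RPS or RPLP followed by a number and, at most, the letter A or X. That rule gave 75 of the 30373 rows of the table, 29 for the small subunit (RPS) and 46 for the large subunit (RPL, with the 3 acidic stalk genes RPLP0, RPLP1 and RPLP2 among them). No measured value entered the choice. Genes of the ribosome with other names (such as RPSA), the row RPS17L, the extra rows RPL9_2 and RPL9_3, and read-through rows such as RPL36A-HNRNPH2 fall outside the rule and are named only where a result turns on them.

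The study measured polyadenylated RNA in human cancer cell lines given ML-792, a compound the labels also call ML00754792, which blocks the enzyme that activates the small modifier protein SUMO. The lines HCT116 and COLO205 come from colorectal tumours, and MDAMB231 comes from a breast tumour. In the 16 h experiment each line received ML-792 at 500 nM or DMSO at 0.01%, which made 6 groups. In the 3.5 h experiment HCT116 received the same doses without heat shock, or with a heat shock that put 0.5 h at 43 °C between 2 h of treatment and 1 h of recovery at 37 °C, which made 4 groups. Every group held 3 libraries, 30 in all, which the labels call biological triplicates, and libraries 1 to 3 are numbered here in order of deposit, so the numbers pair nothing. Each line stands for 1 tumour, and every control cell was exposed to DMSO.

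Ribosomal proteins are built into the subunits together with ribosomal RNA, nearly all as a single copy per ribosome, so cells make their messenger RNAs in large and roughly matched amounts. Most of these messenger RNAs begin with a cytosine followed by an unbroken run of pyrimidines, the terminal oligopyrimidine (TOP) motif, through which the mTORC1 kinase pathway and the RNA-binding protein LARP1 adjust their translation and stability. Subunits are assembled in the nucleolus, where several assembly factors carry SUMO, and free RPL5 and RPL11 can bind MDM2, the ligase that keeps p53 low.

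The letters at the transcription starts are shown because the TOP motif is the sequence feature these genes share and the name rule did not use it. Each line gives 10 bases before and 20 bases from a start annotated by RefSeq (GRCh38.p14), read 5′ to 3′ on the gene's strand, with the pyrimidine run over the start in capitals. Where a gene has several annotated starts, one with the motif is shown if there is one, and among those the one with the longest run. The first 6 are members whose changes are described below and that have the motif. RPS24 lies at chr10:78033853-78033882 on the plus strand, RPL39 at chrX:119791611-119791640 on the minus strand, RPL13 at chr16:89560672-89560701 on the plus strand and RPL22 at chr1:6199576-6199605 on the minus strand. RPS27 lies at chr1:153990752-153990781 on the plus strand and RPLP0 at chr12:120201092-120201121 on the minus strand. The last 3 are members whose annotated start lacks the motif: RPL10A at chr6:35468391-35468420 on the plus strand, RPS29 at chr14:49598691-49598720 and RPS4X at chrX:72277229-72277258, both on the minus strand.
RPS24: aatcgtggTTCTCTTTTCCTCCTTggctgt
RPL39: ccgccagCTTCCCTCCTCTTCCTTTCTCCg
RPL13: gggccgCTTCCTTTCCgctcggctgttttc
RPL22: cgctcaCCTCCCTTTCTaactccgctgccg
RPS27: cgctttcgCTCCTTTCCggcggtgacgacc
RPLP0: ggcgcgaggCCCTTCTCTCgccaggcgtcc
RPL10A: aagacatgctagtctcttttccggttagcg
RPS29: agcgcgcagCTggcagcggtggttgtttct
RPS4X: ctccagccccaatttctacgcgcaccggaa

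RefSeq's table of starts held 61 of the 75 members. A C at an annotated start followed by at least 4 more C or T was present in 45 of these 61 genes (73.8%), against 5.14% of the 27305 genes in the same table. A gene counted if any of its annotated starts had the motif. Counted by start, it was 45 of 76 for the members (59.2%), against 4.07% of 35116 starts of all genes. The median pyrimidine run over a start was 10 bases for the members and 0 for all genes. Within 250 bases before and 50 bases after a start, on either strand, the letters CCGGAAG (a core that ETS factors bind) occurred in 36.1% of the members and 12.2% of all genes. AAGATGGC, a core that YY1 binds, occurred in 9.84% of the members and 3.52% of all genes, and TATAAA in 8.20% and 14.0%. These are matches of letters at annotated starts, and the starts used in these cells were not measured.

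Values are FPKM, fragments scaled by transcript length and library size, as deposited. Levels of different genes are therefore on a common scale, though that of any single member is uncertain, as described below. Changes are differences on the log2(FPKM + 1) scale. Each value is relative to the rest of its library, so fewer cells and less RNA per cell cannot be told apart. FPKM summed over all rows ran from 461420 to 732250 per library, and mitochondrially encoded genes took 9.05% to 18.9% of it. The number of reads per library was not used here. Ratios of low values put the depth of the 3.5 h libraries at 1.15 to 2.28 times that of a 16 h library taken as reference, and that of the 16 h libraries at 0.821 to 1.06 times. These are rough estimates: the most frequent ratio, which gave each of them, held only 7.63% to 18.5% of the ratios of a library. In DMSO at 16 h the lines carried markers of their labels in part: VIM, an intermediate filament of mesenchymal cells, was 885 FPKM in MDAMB231 and 4.03 in HCT116, and the epithelial marker EPCAM was 467 in COLO205, 113 in HCT116 and 15.3 in MDAMB231. Of the 8 colorectal markers listed, 6 were higher by mean in COLO205 than in HCT116, among them VIL1 (114 against 0.0188 FPKM), and CDX2 (0.275 against 5.87) and KRT20 (0.209 against 0.587) were lower, while CDX1 was listed at 0 in HCT116. Of the 6 mesenchymal markers, 5 had their highest mean in MDAMB231, and SPARC was 0.191 there against 0.573 in HCT116.

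Levels of some members differed between the experiments in a way the labels do not explain. Over the 75 members, the mean FPKM in DMSO-treated HCT116 at 3.5 h was 0.755 to 8.66 times that at 16 h, with a median of 1.1, and 13 members lay outside a 1.5-fold range. RPL27A, a large subunit protein, had 177 ± 12.3 FPKM (SD, n = 3) at 16 h and 1534 ± 20.5 at 3.5 h. RPS23, a small subunit protein near the decoding centre, had 227 ± 11.6 and 1495 ± 47.4. Experiment and time cannot be told apart here, so levels are compared only within an experiment. Many of these genes also have near-identical pseudogene copies, and how the authors' counting shared reads among copies is not known from the sources at hand, and the level of any single member is uncertain.

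All 75 members were well expressed in every group and passed the filter on low values (1 FPKM or more in at least 3 libraries) in every fit. Which members led depended on the line and the experiment. In DMSO at 16 h, RPS2 had the highest mean in HCT116 (2886 FPKM), RPL21 in COLO205 (2645) and RPS18, in the head of the small subunit, in MDAMB231 (2101). RPL41, a very short peptide of the large subunit, came next in each line, with 2821, 2583 and 1559.7 FPKM, and was the highest in HCT116 at 3.5 h with 3147. The lowest at 16 h was RPL27A in HCT116 (177 FPKM), RPL13 in COLO205 (174) and the row RPL9 in MDAMB231 (53.2), while in HCT116 at 3.5 h it was RPL22 (269). Pooled over all 30 libraries, and so over experiments whose levels differ by gene, the 3 highest means were those of RPL41, RPS18 and RPLP0, the base of the acidic stalk, and the 3 lowest those of RPL34, RPL15 and RPL22. Together the members took 16.2%, 16.9% and 16.9% of the summed FPKM in the 3 DMSO-treated HCT116 libraries of 16 h. In COLO205 with DMSO the 3 shares were 14.6%, 14.8% and 15.6%. In MDAMB231 with DMSO they were 10.9%, 10.9% and 11.0%. The order HCT116, COLO205, MDAMB231 held without overlap, and the MDAMB231 libraries were the most alike. Large subunit genes summed to 1.5 ± 0.0201 times the small subunit genes (SD, n = 3) in HCT116 with DMSO, 1.66 ± 0.0171 times in COLO205 and 1.44 ± 0.00666 times in MDAMB231. With ML-792 the ratios were 1.5, 1.66 and 1.43, which differed from those with DMSO by less than the lines differed from each other.

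**Figure D1:**
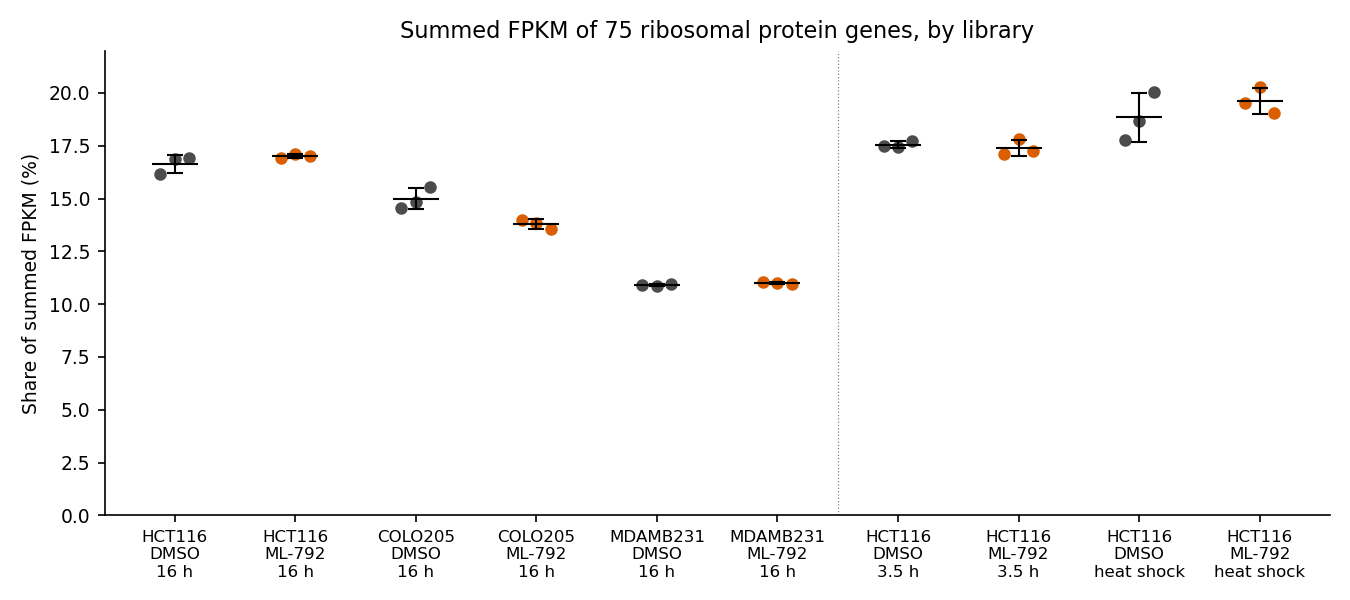
Share of the summed FPKM taken by the 75 ribosomal protein genes (vertical axis, percent) in each of the 30 libraries (points), with the mean and SD of each group of 3 (bars); the dotted line parts the 16 h from the 3.5 h experiment. MDAMB231 lies near 11% with either treatment, COLO205 has means of 15.0% with DMSO and 13.8% with ML-792, and the heat shocked HCT116 libraries spread from 17.8% to 20.3%.

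Among vehicle-treated cells, ribosomal protein genes were lower in MDAMB231 than in either colorectal line. Against HCT116, 71 of the 75 were lower and 2 higher, where limma called 83.6% of the 14251 genes tested (45.5% lower and 38.1% higher). The median difference of the members was -0.61, a ratio of 0.655, against -0.066 over all genes tested. Against COLO205, 63 were lower and 9 higher (86.4% of all genes called, 44.5% lower), with a median of -0.60 against -0.019. Quantile normalization gives every library the same distribution of values, and can so remove part of a shift shared by abundant genes such as these. After it, the members' median was -0.22 against HCT116 (50 lower, 9 higher) and -0.21 against COLO205 (50 lower, 16 higher). How many of all genes were called after that step is not given here, so these counts are not compared with that share.

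RPL7, a large subunit protein that binds RNA, showed one of the lowest ratios: 506, 495 and 489.9 FPKM in the MDAMB231 libraries against 1799, 1879 and 1766 in HCT116 (log2 -1.87, SE 0.0352, adjusted p = 7.45e-19). RPS2, at the mRNA entry channel of the small subunit, had 814, 855 and 876 FPKM against 2590.4, 3022 and 3046 (log2 -1.76, SE 0.0639, adjusted p = 1.15e-14). Every MDAMB231 library was below every HCT116 library for both genes. RPS6, the small subunit protein phosphorylated by S6 kinases downstream of mTORC1, was also lower (log2 -1.31, adjusted p = 7.31e-15). RPS10, in the head of the small subunit, went the other way, with 1092, 1098 and 1098 FPKM in MDAMB231 and 869, 914 and 909 in HCT116 (log2 0.29, SE 0.0465, adjusted p = 1.50e-05). RPL35, at the exit of the peptide tunnel, was the other member higher in MDAMB231 (log2 0.23, adjusted p = 0.00172), again with no overlap of the groups. The 2 members without a call were RPL37 and RPS15.

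COLO205 and HCT116 differed gene by gene rather than as a block. In COLO205, 20 members were higher and 40 lower than in HCT116, where 84.9% of all genes tested were called (39.4% higher and 45.5% lower). The median was -0.13 for the members and -0.057 for all genes, and median-of-ratios scaling brought the members' median to -0.025 with 29 higher and 32 lower. The share of all genes called under that scaling is not given here, so these counts are not read as a trait of the members. RPL21, a large subunit protein, had 2537, 2581 and 2818 FPKM in COLO205 against 1092, 1094 and 1012 in HCT116 (log2 1.31, SE 0.0467, adjusted p = 7.44e-15). RPL37, a zinc finger protein of the large subunit, was also higher (log2 0.66, adjusted p = 4.55e-10). RPL36, of the large subunit, had 383, 431 and 469 FPKM in COLO205 against 883, 1119.8 and 1049 (log2 -1.25, SE 0.0749, adjusted p = 2.55e-11). These groups stood clear of each other for all 3 genes. RPS2 and RPS18 were lower as well, with log2 differences of -1.19 and -0.93. MDAMB231 against COLO205 gave the reverse for RPL36 (log2 0.92, adjusted p = 1.81e-09) and RPS18 (log2 0.61, adjusted p = 2.74e-09), gave the largest rise for RPS10 (log2 0.98, adjusted p = 4.51e-13), and gave large falls for RPL21 (log2 -2.36, adjusted p = 8.58e-19) and RPL4 (log2 -1.61, adjusted p = 8.33e-19), a protein of the exit tunnel wall. By group means, 38 members ran in the order HCT116, COLO205, MDAMB231 from high to low, and 26 in the order COLO205, HCT116, MDAMB231.

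**Figure D2:**
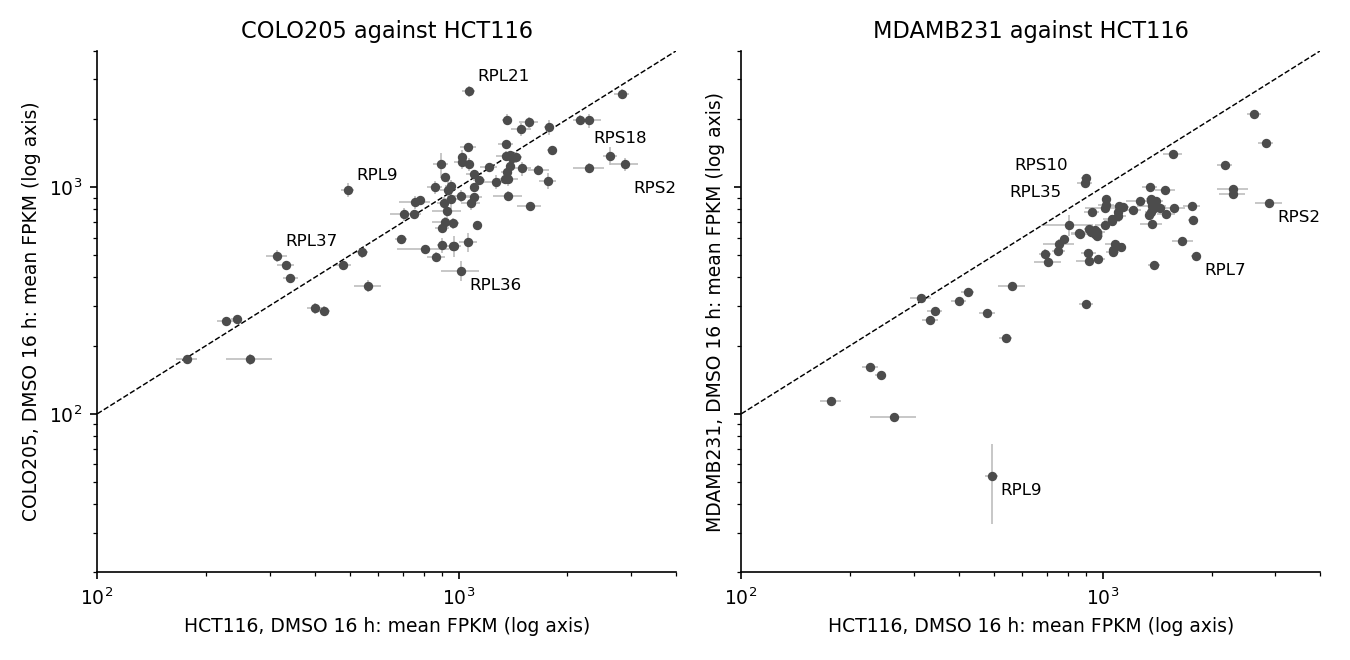
Mean FPKM of each of the 75 genes in DMSO at 16 h (log axes), with COLO205 (left) and MDAMB231 (right) on the vertical axis and HCT116 on the horizontal axis; bars are SD over 3 libraries and the dashed line marks equal levels. Genes scatter on both sides of the line for COLO205, and nearly all lie below it for MDAMB231, with RPL9, RPL7 and RPS2 among the farthest.

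RPL9, a large subunit protein, is spread over several rows of the table. Its 3 rows are RPL9, RPL9_2 and RPL9_3, and what sets them apart is not given in the sources used here. The row RPL9 read 482, 517 and 482 FPKM in HCT116 with DMSO, 934, 932 and 1054 in COLO205 and 76.8, 42.5 and 40.2 in MDAMB231. The row RPL9_3 read 559.9, 555 and 559 in HCT116, 14.5, 5.60 and 21.3 in COLO205 and 623, 699 and 673 in MDAMB231. The RPL9_3 row was thus nearly empty in COLO205 and the RPL9 row low in MDAMB231, while HCT116 filled both. The 3 rows summed to 1055 ± 22.7 FPKM (SD, n = 3) in HCT116, 994 ± 72.8 in COLO205 and 732 ± 15.7 in MDAMB231. Taken alone, the row RPL9 differed by 0.98 between COLO205 and HCT116 and by -3.25 between MDAMB231 and HCT116 (adjusted p = 1.16e-04 and 1.32e-10). With the rows summed, a step chosen after seeing these values, COLO205 differed by -0.088 (adjusted p = 0.107) and MDAMB231 by -0.53 (adjusted p = 1.46e-08). The difference between MDAMB231 and COLO205 went from -4.23 to -0.44 in the same way.

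**Figure D3:**
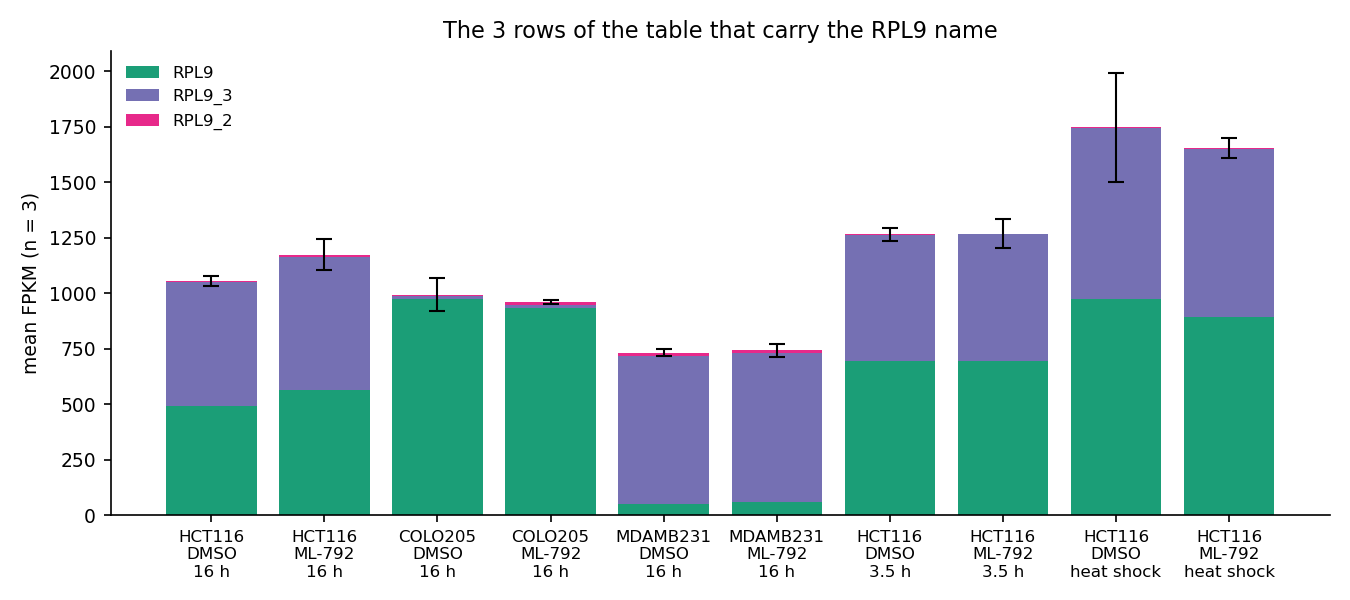
Mean FPKM of the 3 rows that carry the RPL9 name (stacked bars) in the 10 groups, with the SD of their sum over 3 libraries (error bars). The row RPL9 makes up nearly all of the sum in COLO205 and the row RPL9_3 nearly all of it in MDAMB231, while the sums differ less.

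After 16 h of ML-792, a minority of the ribosomal protein genes of HCT116 rose slightly. Of the 75, 10 rose and 0 fell, where 14.7% of all genes tested were called (8.32% higher and 6.42% lower, or 5.47% and 9.88% with equal totals). The members' median difference was 0.074, a ratio of 1.05, against 0.0035 over all genes. The 10 were RPL39, RPL35A, RPS24, RPS7, RPL17, RPL26, RPL41, RPL30, RPL23A and RPL7, 8 of them from the large subunit, and 4 of the 9 listed tunnel-exit proteins were among them. The members ran from -0.063 to 0.19 on the log2 scale.

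RPL39, a small basic protein that lines the exit tunnel, had 1072, 1195 and 1234 FPKM with ML-792 and 967, 1072 and 1024 with DMSO (log2 0.19, SE 0.0554, adjusted p = 0.0268). RPS24, a small subunit protein mutated in some Diamond-Blackfan anaemia families, had 1437, 1556 and 1555 FPKM against 1299, 1420.3 and 1331 (log2 0.17, SE 0.0384, adjusted p = 0.00660). RPL35A, of the large subunit, had 953, 1055 and 1082 FPKM against 892, 939 and 912 (log2 0.17, SE 0.0452, adjusted p = 0.0168). For these genes the lowest ML-792 library equalled or only just exceeded the highest DMSO library. The stalk genes stayed without a call at 0.023 for RPLP0, -0.053 for RPLP1 and -0.052 for RPLP2. The count rested on single libraries: it was 1 without ML-792 library 2 or 3, 26 without ML-792 library 1, 4 without DMSO library 1 and 3 without DMSO library 3. It was 0 when only the compared groups or all 30 libraries entered the fit, and 6 (1 lower) after quantile normalization; the calls of RPL39, RPL35A and RPS24 ended in the fits of only the compared groups and of all 30 libraries.

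In COLO205, 16 h of ML-792 went with lower ribosomal protein gene levels. Of the 75 members, 28 fell and 0 rose, where 37% of all genes tested were called (17.7% lower and 19.4% higher), and 74 of the 75 differences were negative. The median was -0.11, a ratio of 0.927, against 0.0049 over all genes. Of the falls 14 belonged to the small subunit and 14 to the large one, and 8 of the 13 listed proteins of the small subunit head fell. The members' share of summed FPKM was 14.0%, 13.8% and 13.5% with ML-792 and 14.6%, 14.8% and 15.6% with DMSO, with no overlap.

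RPL10A, which forms the mobile stalk at the exit side of the large subunit, had 609, 600.1 and 565 FPKM with ML-792 and 665, 675 and 738 with DMSO (log2 -0.23, SE 0.0432, adjusted p = 5.16e-04). RPS18 had 1233, 1193 and 1197 FPKM against 1307, 1299 and 1522 (log2 -0.18, SE 0.0521, adjusted p = 0.00998). RPLP0 had 1794, 1757 and 1723 FPKM against 1912, 1942 and 2094 (log2 -0.17, SE 0.0423, adjusted p = 0.00390). All 3 ML-792 libraries were below all 3 DMSO libraries for each gene, and DMSO library 3 was the highest each time. RPLP1 and RPLP2 did not pass the test at -0.15 and -0.19. RPS7 alone had a positive difference (log2 0.072, adjusted p = 0.225). Without DMSO library 3 the count was 8 lower and 1 higher, with a median of -0.063. It was 17 without ML-792 library 2, 18 without ML-792 library 3, 7 with all 30 libraries in the fit and 47 with equal totals, all of them lower. The share of all genes called under these settings is not given here. These counts therefore do not show how the members differ from other genes.

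In MDAMB231, 0 of the 75 members were called by limma after 16 h of ML-792, where 16.9% of all genes tested were called (8.38% higher and 8.48% lower). An unadjusted p under 0.05 was reached by 1 member, and by 28.5% of all genes. The median difference was 0.032 against 0 over all genes, and the members ran from -0.082 (RPL36) to 0.19 (RPL9). RPL41 had 1619.8, 1586 and 1578 FPKM with ML-792 and 1535, 1518 and 1625 with DMSO, and RPLP0 had 1311, 1229 and 1230.5 and 1239, 1231 and 1284. These groups overlapped, so no change in either gene was detectable with 3 libraries a group. Leaving out DMSO library 1 gave 1 higher call, and quantile normalization gave 2 higher calls.

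The difference between lines was tested directly. The ML-792 effect in COLO205 was below that in HCT116 for 33 members and above it for 0 (19.4% of all genes called, 9.75% lower and 9.66% higher), with a median of -0.18 against -0.0013 over all genes, and all 75 differences of effects were negative. RPS29, a zinc-binding protein of the small subunit head, gave the largest (log2 -0.33, SE 0.0820, adjusted p = 0.00871): its ML-792 and DMSO values were 1044, 1127 and 1208 and 959, 999 and 1087 FPKM in HCT116 but 831, 818 and 769 and 889.8, 879 and 977 in COLO205. RPS18 (log2 -0.28, adjusted p = 0.0130) and RPL10A (log2 -0.27, adjusted p = 0.00419) followed, and RPLP0 (log2 -0.20, adjusted p = 0.0296), RPL5 (log2 -0.19), RPS6 (log2 -0.23, adjusted p = 0.0211) and RPS4X (log2 -0.15, adjusted p = 0.0475) were among the 33. The call of RPS4X ended under most other settings, and quantile normalization gave it 0.028, while those of RPLP0, RPL5 and RPS6 ended with only the compared groups or all 30 libraries. The count was 10 without HCT116 ML-792 library 2, 16 without HCT116 ML-792 library 3 or HCT116 DMSO library 1, 18 without COLO205 ML-792 library 2 and 14 without COLO205 DMSO library 3. It was 14 with only the compared groups, 13 after quantile normalization and 2 with all 30 libraries in the fit, every call being lower.

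Between MDAMB231 and COLO205 the ML-792 effect was higher in MDAMB231 for 17 members and lower for 0 (26% of all genes called, 12% higher and 14% lower), with a median of 0.14 against -0.0055. Large differences were those of RPS29 (log2 0.29, adjusted p = 0.0159) and RPL10A (log2 0.29, adjusted p = 0.00230). This comparison shares its COLO205 libraries with the previous one, and their fall enters both. Its count was 5 without COLO205 DMSO library 3 or MDAMB231 ML-792 library 1, 8 without MDAMB231 DMSO library 2, 10 without COLO205 ML-792 library 3, 11 without MDAMB231 DMSO library 1 or 3 and 28 without COLO205 DMSO library 1. All 30 libraries in the fit left 1 call, and equal totals gave 32, where the share of all genes called is not given here. Between MDAMB231 and HCT116 the effects gave 0 calls with limma (10.8% of all genes called, 4.93% higher and 5.84% lower), with a median of -0.033. An unadjusted p under 0.05 was reached by 1 member, and by 24.4% of all genes.

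**Figure D4:**
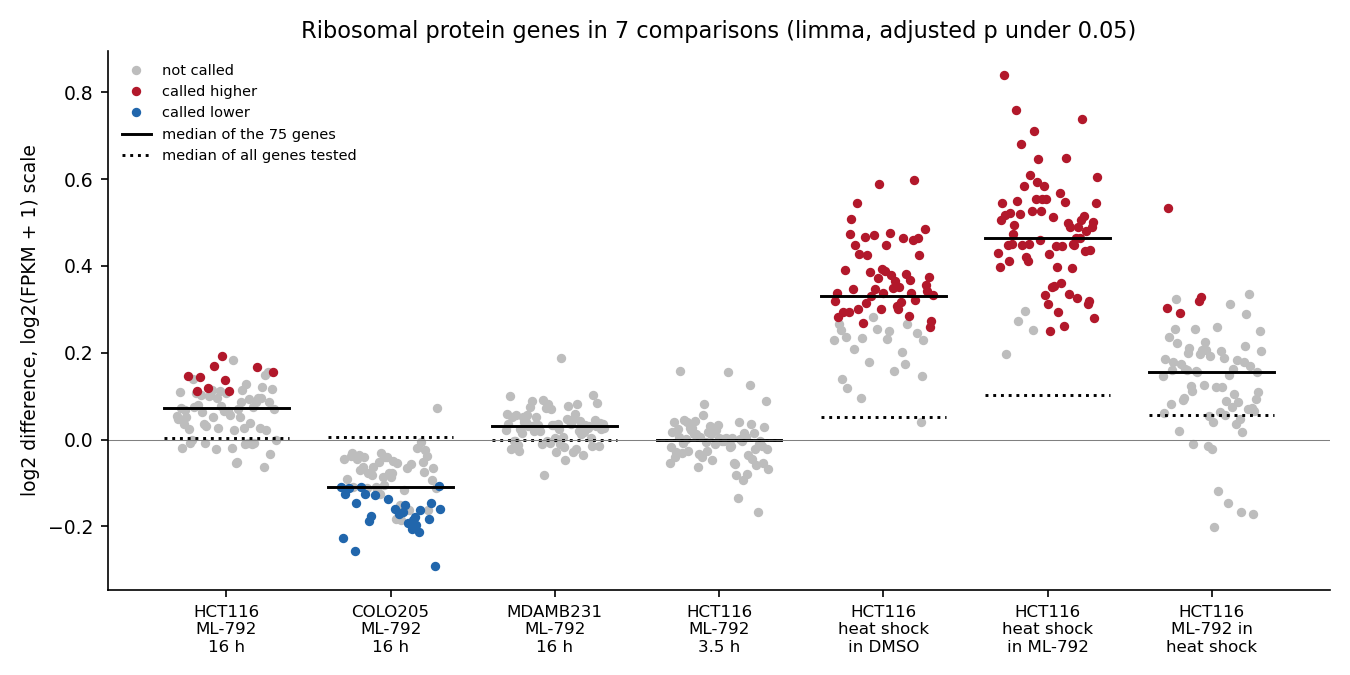
Log2 difference (vertical axis) of each of the 75 genes in 7 comparisons, coloured by limma's call, with the median of the 75 genes (solid line) and of all genes tested (dotted line). The 28 coloured points of COLO205 lie below 0 and the points of both heat shock comparisons above it; after quantile normalization, not drawn, the heat shock medians are -0.032 in DMSO and -0.027 in ML-792.

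At 3.5 h without heat shock, ML-792 left no member called in HCT116. Limma called 0 of 75, and 1.21% of all genes tested (1.02% higher and 0.189% lower). An unadjusted p under 0.05 was reached by 0 members, and by 7.33% of all genes. The median was -0.0013 and the range -0.17 (RPS29) to 0.16 (RPL17). RPS24 had 1804, 1926 and 1791 FPKM with ML-792 and 1661, 1659.5 and 1738 with DMSO, and RPL39 had 1063, 1186 and 1114 and 1096, 1136 and 1154. The RPS24 groups did not overlap although the gene was not called (log2 0.13, adjusted p = 0.989), and the RPL39 groups did. The ML-792 effect at 16 h minus that at 3.5 h was called for 0 members by limma (2.4% of all genes called, 1.12% higher and 1.28% lower, or 0.855% and 1.55% with equal totals). An unadjusted p under 0.05 was reached by 7 members, and by 16.6% of all genes. The 10 rises of 16 h were thus not shown to differ from the early effect.

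Heat shock of vehicle-treated HCT116 went with higher FPKM for most of the family, which quantile normalization did not keep. After that step 24 of the 75 were called, 18 lower and 6 higher, with a median of -0.032. Over all genes it called 28.0% lower and 20.6% higher, also with a median of -0.032. Because it sets equal values at equal ranks, it can itself remove a shift shared by many abundant genes. It therefore cannot decide whether the family rose as a block. As deposited, 53 of the 75 members were higher and 0 lower, where 49.5% of all genes tested were called (28.9% higher and 20.6% lower). Every member's difference was positive on this scale, and the median was 0.33, a ratio of 1.26, against 0.051 over all genes. The small subunit gave 22 of 29 calls and the large subunit 31 of 46.

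RPS24 had 2264, 2560.5 and 2861 FPKM after heat shock and 1661, 1659.5 and 1738 without (log2 0.60, SE 0.0870, adjusted p = 1.15e-04). RPL39 had 1480.2, 1695 and 1948 FPKM against 1096, 1136 and 1154 (log2 0.59, SE 0.0915, adjusted p = 1.93e-04). RPL26, which lies by the exit tunnel and is also known to bind p53 messenger RNA, had 1923, 2255 and 2538 FPKM against 1491, 1518 and 1564 (log2 0.55, SE 0.0980, adjusted p = 5.84e-04). All heat shocked libraries were above all unshocked ones for these genes, with heat shocked library 3 the highest, and the 3 genes kept their rise under every scaling and other setting run. RPLP0 (log2 0.38, adjusted p = 0.00298), RPS6 (log2 0.37, adjusted p = 0.00179), RPL5 (log2 0.34, adjusted p = 0.00322) and RPL11 (log2 0.34, adjusted p = 0.0109) rose as well, but not after quantile normalization, which gave 0.060, -0.032, 0.016 and -0.060 in that order. RPS28, a small protein at the mRNA exit of the small subunit, had 621, 662 and 816 FPKM against 704, 669 and 656 (log2 0.04, adjusted p = 0.822), the smallest difference of the family, which quantile normalization turned to -0.35 (adjusted p = 0.00694).

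The heat shocked libraries also differed as libraries. Their summed FPKM averaged 659060 against 557190 without heat shock, and the members' share was 17.8%, 18.7% and 20.1% against 17.5%, 17.4% and 17.7%. Replicates spread more for these genes, with a median SD of 0.206 (log2) over the members against 0.0994 over all genes. With totals made equal, the median over all genes moved from 0.051 to -0.16 and that of the members from 0.33 to 0.092, with 26 members higher and 0 lower beside 12% of all genes higher and 43.2% lower. With totals equal over genes other than the members and the mitochondrially encoded genes, 20 were higher and 1 lower. The count was 36 without heat shocked library 3 and 69 without heat shocked library 1, all of them higher. With DMSO and with ML-792, the sample codes of the heat shocked libraries come from another number range than those of the unshocked 3.5 h libraries. What the codes stand for is not given. Heat shock cannot be told apart from any other difference between these sets of libraries.

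Under ML-792, 71 of the 75 members were higher after heat shock as deposited and 0 lower, against 11 higher and 14 lower after quantile normalization, with a median of -0.027. That normalization called 28.0% of all genes higher and 29.7% lower, and their median was -0.0011. Of all genes tested 61.7% were called (39.3% higher and 22.3% lower, or 14.2% and 45.6% with equal totals). The members' median was 0.46, a ratio of 1.38, against 0.10 over all genes. The 4 members without a call were RPL14, RPL34, RPL23A and RPL28. All 29 small subunit genes were called, as were all 3 stalk genes.

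RPL13, a large subunit protein, gave the largest rise: 1706, 2203 and 1499 FPKM after heat shock and 982, 1020.5 and 979.8 without (log2 0.84, SE 0.129, adjusted p = 1.39e-04). RPL22, an RNA-binding protein at the outer surface of the large subunit, had 494, 484 and 428 FPKM against 273, 289.7 and 266 (log2 0.76, SE 0.0909, adjusted p = 1.82e-05). RPS27, a zinc finger protein of the small subunit, had 2613, 2733 and 2095 FPKM against 1433, 1564 and 1437 (log2 0.74, SE 0.112, adjusted p = 1.21e-04). The groups were apart for all 3 genes, and their rises kept direction and call under every setting run, quantile normalization included. With equal totals 50 members were higher and 1 lower, the median over all genes moved from 0.10 to -0.16, and that of the members moved from 0.46 to 0.17. No member passed the test with a 2-fold change in either heat shock comparison.

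Members were also counted by their place in the ribosome after heat shock, on the scale as deposited. Of all genes tested, 28.9% were called higher in DMSO and 39.3% in ML-792, and of the 75 members 53 and 71. The shares of all genes after quantile normalization are given above. Of the 9 listed proteins around the exit of the peptide tunnel, 8 were higher in DMSO (median 0.39) and 8 in ML-792 (median 0.58), and 3 and 4 of them were still higher after quantile normalization, with 1 lower each time. Of the 13 listed proteins of the small subunit head, 7 were higher in DMSO (median 0.30) and 13 in ML-792 (median 0.46), but after quantile normalization 0 were higher and 4 and 2 were lower. Of the 9 listed genes mutated in Diamond-Blackfan anaemia, an inherited failure of red cell production, 7 were higher in DMSO and 9 in ML-792, against 2 in each (with 1 and 2 lower) after quantile normalization. These lists hold members of 1 family, most of which were called, and the differences between the lists were not tested. Their counts are therefore not read as traits of a place in the ribosome or of a disease. In the acidic stalk, which recruits elongation factors, RPLP0 had 2571, 2839 and 3224 FPKM after heat shock and 2149, 2169 and 2292 without in DMSO, and 2919.9, 3266 and 2817 against 2146, 2266 and 2187 in ML-792 (log2 0.45, adjusted p = 7.58e-04). RPLP1, which pairs with RPLP2 on the stalk, had 2055, 2192 and 2579 FPKM against 1911, 1638 and 1798 in DMSO (log2 0.35, adjusted p = 0.0288), a rise that quantile normalization took to -0.025. RPLP2 had 1202, 1299 and 1625 FPKM against 1231, 1218 and 1220.1 and was not called in DMSO (log2 0.16, adjusted p = 0.215). RPLP0 and RPLP1 did not overlap between heat shocked and unshocked DMSO libraries, and RPLP2 did.

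In heat shocked cells, ML-792 against DMSO gave 5 members higher and 0 lower, where 33.5% of all genes tested were called (18.4% higher and 15.1% lower, or 8.13% and 16.8% with equal totals), with a median of 0.16 against 0.057. The 5 were RPL13, RPL36, RPL35, RPL12 and RPL22, all of the large subunit. RPL13 had 1706, 2203 and 1499 FPKM with ML-792 and 1084, 1166 and 1466 with DMSO (log2 0.53, SE 0.129, adjusted p = 0.0105), and its groups alone did not overlap. RPL7 lay at the other end, with 2423, 2303 and 2442 FPKM against 2397, 2796 and 3097 (log2 -0.20, adjusted p = 0.0850), and was called lower under each of the other scalings. The count was 42 without DMSO library 3, 13 without ML-792 library 3, 1 without ML-792 library 2 and 0 without DMSO library 2, and without DMSO library 1 it was 6, of which 5 were lower. RPL13 lost its call without DMSO library 2 and with only the compared groups (adjusted p = 0.0844). Scaling moved it to 2 (1 lower), 17 (4 lower), 19 (4 lower) or 23 (10 lower), in the order median-of-ratios, equal totals, totals without the members, and quantile normalization. The interaction of heat shock and ML-792 gave 0 calls with limma (6.41% of all genes called, 2.48% higher and 3.93% lower, or 0.336% and 1.85% with equal totals). An unadjusted p under 0.05 was reached by 31.3% of all genes and by 2 members, RPL13 (log2 0.57, adjusted p = 0.0688) and RPS15 (log2 0.45, adjusted p = 0.114). The larger count under ML-792 was thus not shown to be a larger effect. RPL13 was called in this interaction with equal totals, with all 30 libraries in the fit and after quantile normalization. Without DMSO heat shock library 3 the interaction was called for 12 members, all higher.

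**Figure D5:**
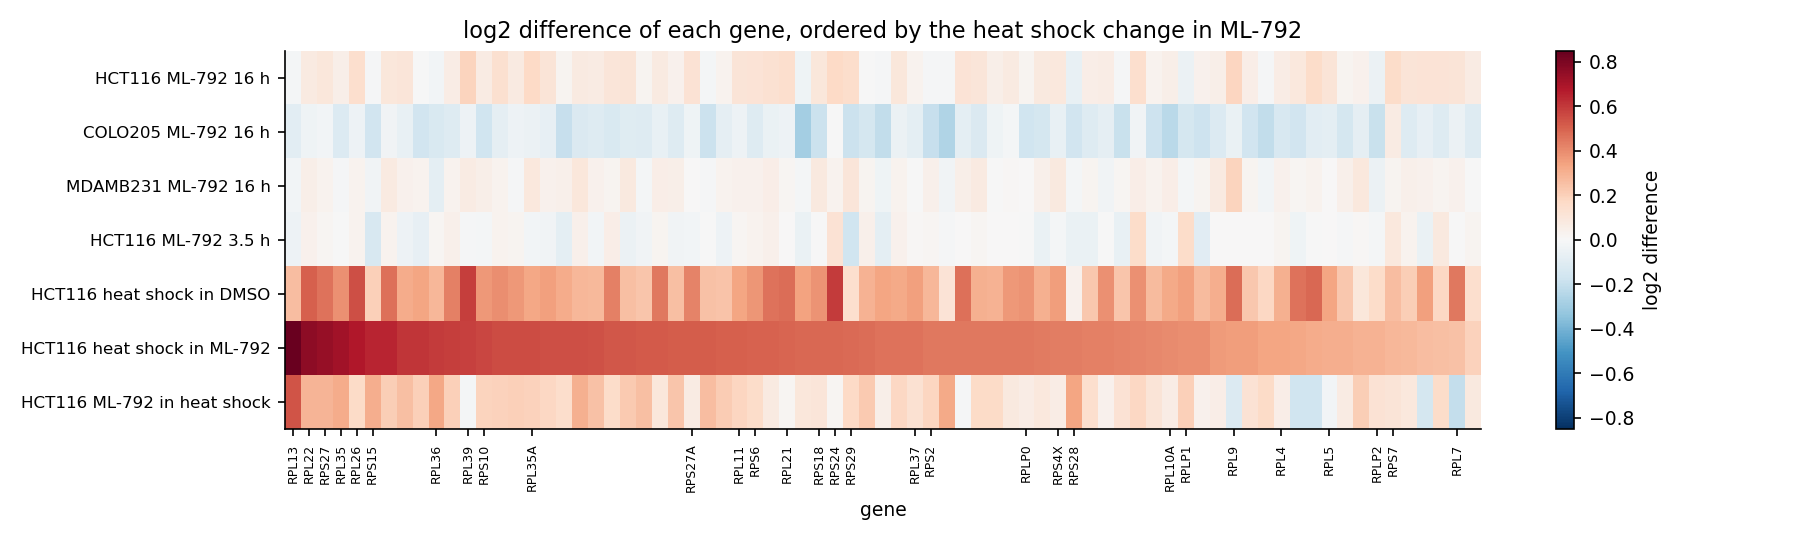
Log2 difference (colour) of each of the 75 genes (columns, ordered by the heat shock difference in ML-792) in 7 comparisons (rows), with the names of genes described in the text, on the FPKM scale as deposited. The 2 heat shock rows are positive throughout, though quantile normalization called 18 genes lower in DMSO and 14 in ML-792, the COLO205 row is negative for 74 genes, and RPL13 stands out in the last row.

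Members with a TOP motif at the annotated start and those without had close medians, which were not tested against each other. The split rests on the exact base annotated as the start. RPL10A, counted as without the motif, has a pyrimidine run that begins just after that base. These sets therefore cannot be read as TOP and non-TOP messenger RNAs, and their medians do not show whether the motif matters. After heat shock in ML-792 the median was 0.51 for the 45 with the motif and 0.44 for the 16 without, and in DMSO 0.34 and 0.30. After 16 h of ML-792 the medians were -0.11 and -0.13 in COLO205 and 0.075 and 0.065 in HCT116. Calls were shared by both sets: in COLO205 16 of the 45 and 7 of the 16 fell, RPL10A and RPS29 among those without the motif. The 14 members without an entry in the table are in neither set.

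Some members have a paralog elsewhere in the genome. RPL22L1, the RPL22 paralog, was 113 ± 5.63 FPKM (SD, n = 3) in HCT116 with DMSO at 16 h, 18.2 ± 1.44 in COLO205 and 11.3 ± 0.466 in MDAMB231, a span much wider than that of RPL22 itself (243 ± 8.49, 262 ± 1.78 and 149 ± 2.08). With ML-792 it fell in COLO205, to 12.2, 13.5 and 10.5 from 17.0, 17.7 and 19.8 FPKM (log2 -0.55, adjusted p = 4.08e-05), where RPL22 was not called (log2 -0.036, adjusted p = 0.483). After heat shock the paralog was not called in DMSO (log2 0.0088, adjusted p = 0.928) or in ML-792 (log2 -0.14, adjusted p = 0.114), and it was called lower in both with equal totals (-0.23 and -0.43) and after quantile normalization (-0.43 and -0.56). RPL22 itself rose in ML-792, as given above. In DMSO it averaged 385 FPKM after heat shock and 269 without, and its interaction of heat shock and ML-792 was not called (log2 0.25, adjusted p = 0.198). RPS27L, the RPS27 paralog and a p53 target, rose with ML-792 at 16 h in HCT116, from 59.8, 63.1 and 58.8 to 67.7, 75.7 and 76.3 FPKM (log2 0.27, adjusted p = 0.00247), and in COLO205 (log2 0.23, adjusted p = 0.00277). RPS27 itself was called in neither (log2 0.10, adjusted p = 0.142 and log2 -0.024, adjusted p = 0.711). RPL39L, the RPL39 paralog, was listed at 0 in all 3 DMSO libraries of HCT116 at 16 h and had means of 18.5 FPKM in COLO205 and 27.7 in MDAMB231.

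Further members were followed in every comparison for their known roles. RPS27A, which is made as a fusion with ubiquitin, rose after heat shock in DMSO (log2 0.42, adjusted p = 0.00257) and in ML-792 (log2 0.51, adjusted p = 5.12e-04), though in neither after quantile normalization, and was called with ML-792 at 16 h in neither HCT116 (log2 0.12, adjusted p = 0.0853) nor COLO205 (log2 -0.037, adjusted p = 0.570). RPS4X, encoded on the X chromosome, rose after heat shock (log2 0.36, adjusted p = 0.00696 in DMSO and log2 0.44, adjusted p = 0.00146 in ML-792), where quantile normalization gave -0.018 and -0.078. RPL5 and RPL11, the 5S RNP proteins that bind MDM2, were called in no line after 16 h of ML-792, at 0.11 and 0.11 in HCT116, -0.086 and -0.044 in COLO205 and 0.0038 and 0.035 in MDAMB231. RPL5 did pass the test as lower in COLO205 with median-of-ratios scaling, equal totals, the GC and length correction and quantile normalization (-0.17). RPL5 was lower in COLO205 than in HCT116 with DMSO (log2 -0.81, adjusted p = 2.17e-12) while RPL11 was not called (log2 0.019, adjusted p = 0.649), and other settings called RPL11 in either direction.

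Other genes of translation were counted in the same comparisons, where limma called 17.7% of all genes lower and 19.4% higher in COLO205 with ML-792, 8.32% higher and 6.42% lower in HCT116 at 16 h, and, after heat shock, 28.9% higher and 20.6% lower in DMSO and 39.3% higher and 22.3% lower in ML-792. Of 18 translation factors and other genes with a known TOP motif, 6 fell and 0 rose in COLO205 (median -0.063), and 5 rose and 0 fell in HCT116 at 16 h (median 0.086), of which quantile normalization left 0. After heat shock 14 of them rose in DMSO and 11 in ML-792 with 0 falling, whereas quantile normalization gave 2 higher and 6 lower in DMSO and 0 higher and 10 lower in ML-792. NPM1, a nucleolar chaperone, fell most clearly in COLO205 (log2 -0.27, adjusted p = 4.15e-05), and TPT1, an abundant growth-related protein, rose after heat shock (log2 0.61, adjusted p = 5.40e-05 in DMSO). Of 76 mitochondrial ribosomal protein genes, which serve another ribosome, 34 fell and 2 rose in COLO205 with ML-792 (median -0.13). After heat shock 36 rose and 2 fell in DMSO (median 0.21), against 9 and 20 with equal totals, and 50 rose and 6 fell in ML-792 (median 0.30), against 18 and 18. MRPL18 rose most in DMSO (log2 1.69, adjusted p = 4.35e-10). Of 14 regulators of mTORC1 and TOP translation, 8 fell and 2 rose in COLO205 with ML-792. DDIT4, an inhibitor of mTORC1, went from 258, 324 and 312 to 88.7, 104 and 75.9 FPKM there (log2 -1.73, adjusted p = 1.26e-08), DEPTOR, another inhibitor, fell (log2 -0.58, adjusted p = 1.44e-06), and EIF4EBP2, a translation repressor, rose (log2 0.27, adjusted p = 1.47e-04). With ML-792 at 16 h DDIT4 also fell in HCT116 (log2 -0.43, adjusted p = 0.0184) and was not called in MDAMB231 (log2 -0.33, adjusted p = 0.0608). After heat shock in DMSO, DDIT4 (log2 1.89, adjusted p = 2.91e-08) and SESN2 (log2 1.51, adjusted p = 1.34e-07), which restrains mTORC1 under stress, rose and the mTORC1 subunit RPTOR fell (log2 -0.64, adjusted p = 2.48e-06). Whether these genes have a part in the changes of the ribosomal protein genes was not tested. Of 7 dedicated chaperones of ribosomal proteins, 3 fell and 0 rose in COLO205 with ML-792. After heat shock in DMSO 3 of them rose, AAMP (log2 0.28, adjusted p = 0.0105), BCCIP (log2 0.25, adjusted p = 0.00620) and PDCD2 (log2 0.27, adjusted p = 0.00774), against 0 with equal totals or after quantile normalization, and 1 fell, GRWD1, which escorts RPL3 (log2 -0.93, adjusted p = 0.00268).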

How the data were processed

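Polyadenylated RNA of 30 libraries was sequenced as paired 50-base reads after stranded library preparation, per the labels' protocols. The authors deposited FPKM per gene in 1 table that covers every library. That the unit is FPKM rests on the values, since their totals differ between libraries and the deposited file states no unit. The submitters' processing notes name DESeq2 1.10.1 with no role, and which aligner, genome build and annotation were used is not given in the sources used here. Depth in reads is unknown, so no counting intervals were made.

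Groups follow the labels, with n = 3 in each. Limma 3.58.1 in R 4.3.3 (lmFit, eBayes with trend and robust) was run on log2(FPKM + 1), a scale that understates changes of low genes, over genes reaching 1 FPKM in 3 or more libraries of the fit. The 3 fits held the 18 libraries of 16 h (14251 genes), the 12 of 3.5 h (12191) and the 12 HCT116 libraries without heat shock (12462). Calls needed an adjusted p under 0.05 (Benjamini-Hochberg, over every gene tested in that comparison), in 15 comparisons; "higher", "lower", "rose" and "fell" mean called. P-values measure only the spread between these libraries. The procedure was tested on simulated data with independent noise for each gene. That test does not cover shifts that the members of a library share, so it does not bear on the counts of members.

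Members, gene lists and comparisons were chosen with earlier results of these data known. Genes named are the 3 called members with the largest rise and fall whose groups do not overlap (in differences of effects, whatever the overlap), a fixed set (RPLP0, RPLP1, RPLP2, RPL5, RPL11, RPS6, RPS27A, RPS4X, RPL22, RPS27 and their paralogs), the 3 most and least abundant, and at most 3 genes of other lists by smallest adjusted p. Some results of this rule are not reported here. Other members that are named, such as the ends of a range, the highest and lowest of a group, the chaperones AAMP, BCCIP and PDCD2, RPL39L, RPS28, RPL7 under heat shock and the examples of experiment differences, were chosen after their values were seen. Alternatives were pseudocounts, filters, scalings, the variance model, the libraries fitted, a correction for GC content and length, and leaving out each library. Quantile normalization and the summing of RPL9 rows were chosen after seeing the data. The former can itself remove a shift that many abundant genes share, as the members may. Start sequences are RefSeq's (GRCh38.p14), with 14 members not in the table used here.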

Additional observations from a re-analysis of the deposited data

Results flagged for a closer look

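The response to ML-792 at 16 h differed between lines by limma's interaction test. Between COLO205 and HCT116 the difference was called for 33 ribosomal protein genes, all lower in COLO205, beside 19.4% of all genes (9.75% lower), with log2 differences of effect of -0.33 for RPS29, -0.28 for RPS18 and -0.27 for RPL10A. Between MDAMB231 and COLO205 it was called for 17, all higher in MDAMB231, beside 26% of all genes (12% higher), with 0.29 for RPS29 and 0.29 for RPL10A. Both comparisons use the same 6 COLO205 libraries, of which DMSO library 3 had the highest share of summed FPKM in the family.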

How the results depend on the processing

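Counts of members called moved by more than 1.5 times as follows. Unless given above, the share of all genes called under the same setting is not set beside them. They show how far a count depends on the setting, and not how the members differ from other genes. For ML-792 in HCT116 at 16 h (10), they were 4 with median-of-ratios scaling, 6 with the GC and length correction, 6 with quantile normalization, 0 with only the compared groups and 0 with all 30 libraries. For ML-792 in COLO205 (28), they were 47 with equal totals, 43 with totals equal over the other genes and 7 with all 30 libraries. In MDAMB231 (0), quantile normalization gave 2. For COLO205 minus HCT116 (33), they were 14 with only the compared groups, 2 with all 30 libraries and 13 with quantile normalization. For MDAMB231 minus COLO205 (17), they were 32 and 34 with the totals settings, 1 with all 30 libraries and 26 with the GC and length correction. For heat shock in DMSO (53), they were 26 and 21 with the totals settings and 24 with quantile normalization, and in ML-792 (71), 25 with quantile normalization. For ML-792 in heat shocked cells (5), they were 1 without a filter, 2 with median-of-ratios scaling, 17 and 19 with the totals settings, 0 with only the compared groups, 25 with all 30 libraries, 17 with the GC and length correction and 23 with quantile normalization. For the interaction of heat shock and ML-792 (0), they were 1 and 1 with the totals settings, 2 with all 30 libraries and 5 with quantile normalization.

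With 1 library left out, counts ran from 1 to 26 (ML-792, HCT116, 16 h), 9 to 35 (COLO205), 0 to 1 (MDAMB231, reached without DMSO library 1), 10 to 39 (COLO205 minus HCT116), 0 to 1 (MDAMB231 minus HCT116, reached without HCT116 ML-792 library 1) and 5 to 28 (MDAMB231 minus COLO205). They ran from 36 (without heat shock library 3) to 69 for heat shock in DMSO, 65 to 71 in ML-792, 0 to 42 for ML-792 in heat shocked cells, 0 to 12 for the interaction (1 without ML-792 heat shock library 3) and 0 to 4 for 16 h minus 3.5 h, where 4 came without 16 h ML-792 library 1 and 1 without 3.5 h ML-792 library 2. The cause of these shifts was not tested beyond the smaller fits. For named genes, 88 values under an alternative lost their call, 38 gained 1, and 16 turned direction. Turned after quantile normalization were RPS4X (0.028 for COLO205 minus HCT116, -0.018 and -0.078 after heat shock in DMSO and ML-792) and, after heat shock in DMSO, RPL11 (-0.060), RPS6 (-0.032), RPLP1 (-0.025), RPLP2 (-0.18), RPS28 (-0.35) RPL22L1 (-0.43) and BCCIP (-0.0089). BCCIP also turned with totals equal over the other genes (-0.0076), and RPL22L1 with the totals settings (-0.23 and -0.25) and the GC and length correction (-0.16). In COLO205 against HCT116, RPL11 turned with that correction (-0.12) and RPL9 with its rows summed (-0.088). No paired analysis was possible because no replicate number is given in the labels. Read depth is unknown, so changes of a few percent in single members are limited by 3 libraries a group.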
